A study of Homo sapiens with 2 samples.

Results

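PTPRC and CD44 are 2 surface receptor genes of leukocytes whose transcripts differ by variable exons, and they are described here through every transcript model that carries either gene name. These were 63 of the 237608 models in the table, 23 for PTPRC and 40 for CD44, and 2 of the 16645 annotated genes with a read. The RNA came from GM12878, a human B-lymphoblastoid cell line immortalised with Epstein-Barr virus, with no treatment in the labels. Native RNA strands were sequenced on the Oxford Nanopore platform in 2 libraries, replicates 1 and 2 of 1 group, for a series on finding and counting transcripts in long reads. The labels do not say that the replicates came from separate cultures, so a difference between the libraries may be technical. Every p-value here compares the reads of 2 libraries and allows for counting error only.

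PTPRC encodes CD45, a receptor tyrosine phosphatase of leukocytes that sets the activity of SRC family kinases in antigen receptor signalling. Exons A, B and C near the 5′ end of its messenger RNA encode a glycosylated stretch of the extracellular part and are included or skipped in different lymphocytes, which gives the CD45RA, CD45RB and CD45RO forms; the phosphatase domains are encoded further 3′. CD44 encodes a receptor for hyaluronan; its standard form CD44s joins the constant 5′ and 3′ exons directly, and variant forms carry 1 or more of the variable exons v2 to v10 in the membrane-proximal part of the extracellular domain. B cells and other blood cells are known mostly for the standard form, and epithelial cells for variant forms.

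The outer variable exons of PTPRC, A and C, are shown because no read could be placed on them. In GENCODE release 29 (GRCh38, plus strand) they are exons 4 and 6 of the 33 exons of PTPRC-209, at chr1:198696712-198696909 and chr1:198702387-198702530, and both are coding sequence. They hold 198 and 144 bases, and 4633 bases of spliced RNA lie between exon C and the 3′ end of the model.
Exon A: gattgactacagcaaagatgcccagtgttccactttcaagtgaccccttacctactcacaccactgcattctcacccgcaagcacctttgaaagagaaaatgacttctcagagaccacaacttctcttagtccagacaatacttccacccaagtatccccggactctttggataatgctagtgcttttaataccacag
Exon C: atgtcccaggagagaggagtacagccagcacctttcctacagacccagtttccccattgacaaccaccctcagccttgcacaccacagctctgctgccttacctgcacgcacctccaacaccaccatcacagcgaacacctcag
Junction of PTPRC-201 without A, B and C, with the exon 3′ of the join in capitals: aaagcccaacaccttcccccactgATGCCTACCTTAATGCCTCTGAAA

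The CD44 sequences are shown because reads in known models of this gene told its forms apart at these joins. The joins of v10 rested on 4 reads, all in replicate 1. The constant exon 5′ of the variable region ends at the same base in CD44-201, the annotated standard form, and in CD44-210, which carries v10 alone. Exon v10 (chr11:35211246-35211449, 204 bases) and exon v3 (chr11:35198121-35198246, 126 bases) are coding sequence on the plus strand of GRCh38 and were the only variable exons held by a known model with a read. In the 3 joins the exon 3′ of the junction is in capitals.
CD44-201, join without variable exons: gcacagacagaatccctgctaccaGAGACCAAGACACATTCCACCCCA
CD44-210, join into v10: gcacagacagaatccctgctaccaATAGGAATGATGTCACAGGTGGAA
CD44-210, join out of v10: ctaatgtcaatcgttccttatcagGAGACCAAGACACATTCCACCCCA
Exon v10: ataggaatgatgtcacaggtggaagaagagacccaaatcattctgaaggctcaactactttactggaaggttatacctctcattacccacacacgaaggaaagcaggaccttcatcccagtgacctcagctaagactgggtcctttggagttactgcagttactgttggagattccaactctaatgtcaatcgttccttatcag
Exon v3: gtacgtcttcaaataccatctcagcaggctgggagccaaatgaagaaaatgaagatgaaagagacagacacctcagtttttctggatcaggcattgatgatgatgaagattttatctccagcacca

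**Figure D1:**
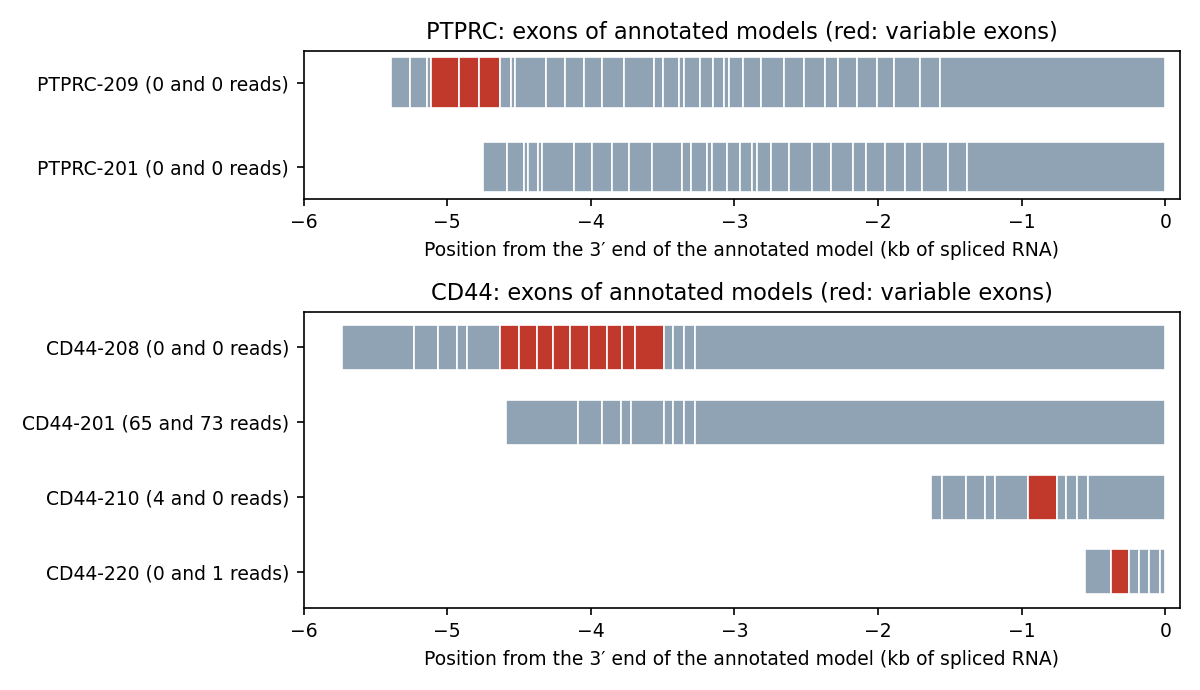
Exons of annotated PTPRC and CD44 models, drawn to scale against the distance in kilobases of spliced RNA from the 3′ end of each model, with variable exons in red. The number of reads in replicates 1 and 2 stands beside each name: no PTPRC model had any, and CD44-201, which has no red exon, had 65 and 73.

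Replicate 1 held 1360368 reads and replicate 2 held 1510998, so that a count of 0 allows up to 2.21 and 1.99 CPM (reads scaled to a common library total). The counts of the 2 libraries differed by more than sampling noise, with a chi-square of 3.27 per gene over 10634 genes. The p-values below do not take this further spread into account. Known models took 56.5% of the reads of annotated genes in replicate 1 and 46.4% in replicate 2, and genomic models took 10.9% and 15.3%. All 11 markers of B-lymphoblastoid cells had at least 10 reads, with means from 43.0 to 7927 CPM and sums of 12919 and 12923 CPM. Of 7 T cell markers, CD3D, CD3G, CD4 and CD8A had 0 reads and the sums were 160 and 164 CPM, nearly all of it TRAC. CD3E and CD2 had 21 and 13 reads over both libraries. The 5 myeloid markers summed to 7.35 and 18.5 CPM with LYZ at 0, the 5 epithelial markers to 6.62 and 20.5 CPM with EPCAM and KRT19 at 0, and the 4 fibroblast markers to 1.47 and 1.99 CPM with COL1A2, COL3A1 and DCN at 0. Over both libraries, ITGAM had 24 of the 38 myeloid reads and CDH1 had 34 of the 40 epithelial reads.

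PTPRC (chromosome 1, 198638457 to 198757476) was read at similar levels in both libraries, but none of its reads matched an annotated isoform. It had 47 reads in replicate 1 and 43 in replicate 2, or 34.6 and 28.5 CPM, a mean of 31.5 CPM ± 4.31 (SD, n = 2). The log2 ratio of replicate 2 to replicate 1 was -0.28, with an exact 95% interval from -0.91 to 0.35 and an adjusted p of 0.795 in the exact binomial test over all genes. The interval includes differences in both directions, so no difference was detectable at this depth. In bulk RNA, fewer cells with the transcript and less of it per cell cannot be told apart.

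The known category, which holds reads that match the splice junctions of an annotated transcript, had 0 of the 47 PTPRC reads and 0 of the 43. A count of 0 allows a known share of up to 6.38% in replicate 1 and 6.98% in replicate 2, for counting error only. GENCODE release 29 lists 17 models of the gene, 10 of them with at least 1 of the exons A, B and C, and none of the 17 received a read. The share of PTPRC messages that carried each variable exon therefore has no value in these libraries.

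Most PTPRC reads lay in single-interval models. Genomic models, a category for transcripts that lie over a gene but follow none of its introns, were single intervals here and held 29 of 47 reads in replicate 1 (61.7%, 95% Wilson interval 47.4 to 74.2%) and 33 of 43 in replicate 2 (76.7%, 62.3 to 86.9%). The model ENCODEHT000642069, of 636 bases, had 14 and 18 reads, and ENCODEHT000642068, of 682 bases, had 14 and 15. The third genomic model, ENCODEHT000642003, had 1 read in replicate 1. Over both libraries the genomic share was 68.9%, against a median of 32.1% among the 1078 coding genes whose longest coding transcript has over 4000 and up to 6000 bases, of which 76.4% had a lower share. The 2 most read models were present in both libraries at nearly equal counts, and their adjusted p-values in the exact binomial test over all models were 0.914 and 1. The table gives no coordinates, so where in the gene they lie is not known.

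**Figure D2:**
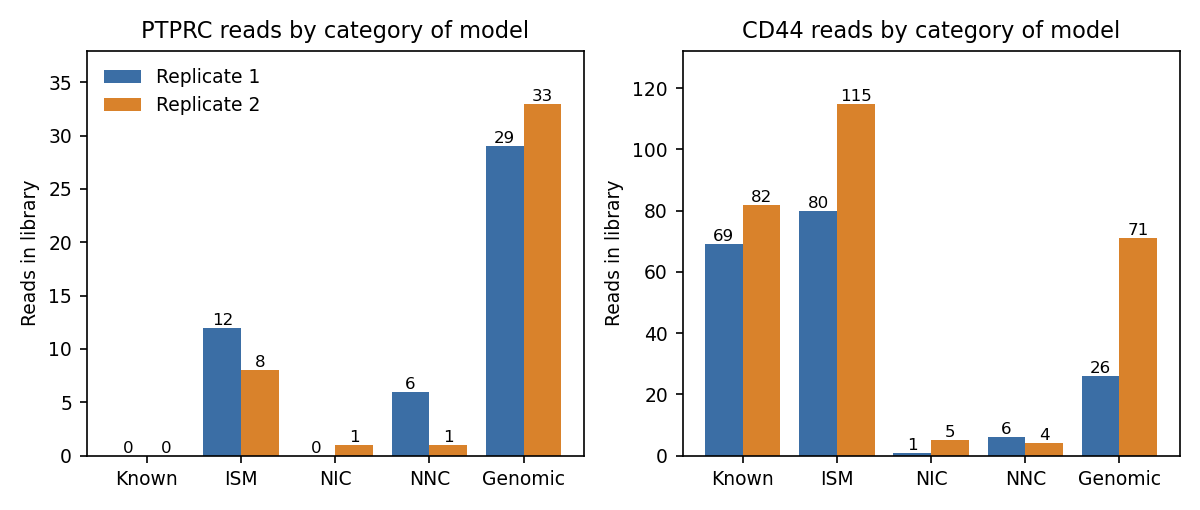
Reads of PTPRC and CD44 in each library by category of transcript model, with the number of reads above each bar. PTPRC had 0 known reads and its highest bars are genomic, while CD44 had 69 and 82 known reads and its genomic bar was 26 in replicate 1 and 71 in replicate 2.

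Only 28 PTPRC reads were spliced, 18 in replicate 1 and 10 in replicate 2, and they were spread over 20 models. Incomplete splice matches (ISM), whose junctions are a consecutive part of those of an annotated model, had 12 and 8 reads. Of these, suffix models, which keep the 3′ end, had 12 and 7. The most read suffix models had 2 and 2 reads in ENCODEHT000642064 (3 exons), 2 and 1 in ENCODEHT000642066 (2 exons) and 2 and 0 in ENCODEHT000642044 (14 exons). ENCODEHT000642056 (8 exons) and ENCODEHT000642061 (5 exons) also had 2 reads, 1 in each library. No prefix model, which would keep the 5′ end, was listed for PTPRC.

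No PTPRC model had enough exons to run from the 3′ end of PTPRC-209 into the variable region. Counted from the 3′ end, a model of PTPRC-209 needs 28 exons to reach exon C and 30 to reach exon A. The spliced models had 2 to 23 exons. The longest, the suffix model ENCODEHT000642029, had 23 exons and 3990 bases and came from 1 read of replicate 1; its length equals that of the last 23 exons of PTPRC-201 exactly. Models that depart from the annotation were single reads. The only model with a new combination of annotated splice sites (NIC) was ENCODEHT000642036, with 20 exons, in replicate 2. There were 7 models with an unannotated splice site (NNC), led in exon number by ENCODEHT000642024 with 23 and ENCODEHT000642028 with 22 exons in replicate 1. Models of 16 or more exons had 7 reads in replicate 1 and 2 in replicate 2.

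The suffix models were placed on the annotation by their exon number and length. Of the 11, 10 fitted inside a single chain of annotated exons, the one shared by PTPRC-201 and PTPRC-209, and none of the chains that held any of the 11 contained A, B or C. These 11 models held all 19 suffix reads. The placement takes a model not to run past the annotated ends, which the table itself cannot show. Without this limit, chains of annotated models with other 3′ ends that hold a variable exon could also fit some of them. The 16-exon model ENCODEHT000642041, for instance, had 1 such chain. The single read of ENCODEHT000642051, of 4 exons and 535 bases, matched both ends of annotated models and could not be placed, and neither could the 8 reads of NIC and NNC models.

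**Figure D3:**
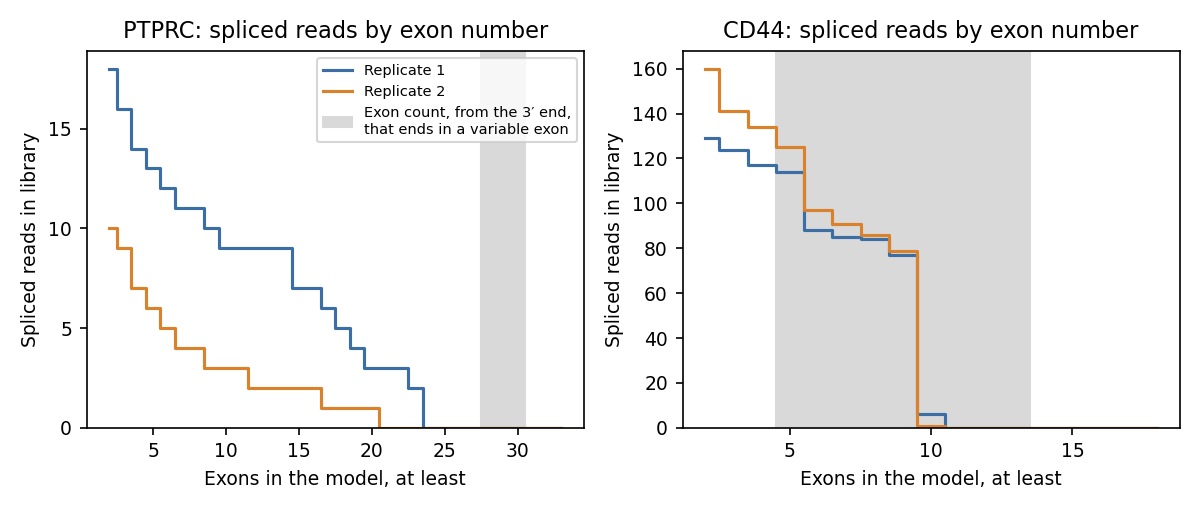
Spliced reads in each library (vertical axis) whose model has at least the number of exons on the horizontal axis. The grey band marks the exon numbers at which a model that contains every variable exon would end in one of them, counted from the 3′ end; PTPRC lines reach 0 after 23 exons, ahead of the band from 28 to 30, and CD44 lines drop after 9 exons, the exon number of CD44-201.

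Models as long in exons as PTPRC were read elsewhere in the libraries, in small numbers. Models with at least 28 exons took 3752 reads in replicate 1 and 910 in replicate 2, or 0.279% and 0.0609% of the reads of annotated genes, in 390 genes. Among ISM, NIC and NNC reads, 0.786% and 0.188% lay in models longer than the 4633 bases that separate exon C from the 3′ end. Both shares were lower in replicate 2, as was the count of PTPRC reads with 16 or more exons; the part of read length in the PTPRC result was not tested. Of 1078 protein-coding genes with at least 50 reads whose longest coding transcript has over 4000 and up to 6000 bases, 90 (8.35%) had no known read, and PTPRC was 1 of them. The share was 5.57% over all 5837 such genes.

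CD44 (chromosome 11, 35138870 to 35232402) had 151 of its 459 reads in known models, 138 of them in the standard form without variable exons, and its total was higher in replicate 2. It had 182 reads in replicate 1 and 277 in replicate 2, or 134 and 183 CPM, a mean of 159 CPM ± 35.0 (SD, n = 2). The log2 ratio was 0.45 (exact 95% interval 0.18 to 0.73), with an adjusted p of 0.0232 in the exact binomial test over all genes. In that test 5.05% of the 10634 genes passed; 2.72% were higher and 2.33% lower in replicate 2.

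The 2 most read CD44 models differed in how they compared between the libraries, and the difference between them was not tested. CD44-201 (9 exons, 4589 bases as annotated) had 65 reads in replicate 1 and 73 in replicate 2, or 47.8 and 48.3 CPM, a log2 ratio of 0.01 (exact 95% interval -0.49 to 0.52) and an adjusted p of 1 in the exact binomial test over all models. That interval includes the 0.45 of the whole gene. In replicate 1 it made up 35.7% of CD44 (29.1 to 42.9%) and in replicate 2 26.4% (21.5 to 31.8%). The single-interval genomic model ENCODEHT000335434, of 2376 bases, had 23 and 66 reads, or 16.9 and 43.7 CPM, a log2 ratio of 1.35 and an adjusted p of 0.000783, in a test in which 15.6% of 25381 models passed. Without this model the gene had a log2 ratio of 0.26 and an adjusted p of 0.439, against the full library totals. Without all genomic models these were 0.32 and 0.222, and with known models only 0.38 and 0.273, all in the exact binomial test. The settings that left out whole categories were scaled to the totals of the categories kept. Their ratios are therefore not on the scale of the 0.26 or of the 0.01 of CD44-201. Single-exon models of CD44 together had 53 reads in replicate 1 and 117 in replicate 2, or 29.1% and 42.2% of the gene. The genomic share of all annotated reads was also higher in replicate 2, as given above, and its part in the CD44 result was not tested.

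Variable exons were rare among the known CD44 reads. GENCODE release 29 lists 39 CD44 models, 23 with at least 1 of v2 to v10, and 6 of the 39 received a read. CD44-210, with v10, had 4 reads in replicate 1 and 0 in replicate 2. CD44-220, a model of 6 exons and 560 bases that carries v3, had 0 and 1. Together they made up 4 of 69 known reads in replicate 1 (5.80%, 95% Wilson interval 2.28 to 14.0%) and 1 of 82 in replicate 2 (1.22%, 0.216 to 6.59%). Averaged over the libraries this was 3.51% ± 3.24 (SD, n = 2). The intervals overlap, and no read lay in CD44-208, which carries all 9 variable exons. That model has 18 exons, and no spliced CD44 model with a read had more than 10.

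The other known CD44 models were short. CD44-225, a retained-intron model of 4 exons and 718 bases, had 0 reads in replicate 1 and 6 in replicate 2. CD44-222 and CD44-232 had 1 read each, both in replicate 2. Only CD44-201 had a read in both libraries, so 138 of the 151 known reads lay in 1 model. With 1 known model of at least 10 reads, the mix of known models could not be tested for CD44, and with none it could not be tested for PTPRC.

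Known models took 37.9% of CD44 in replicate 1 (31.2 to 45.1%) and 29.6% in replicate 2 (24.5 to 35.2%). Their mean was 33.8% ± 5.88 (SD, n = 2). The difference of -8.31 percentage points did not pass Fisher's exact test over all genes (adjusted p of 0.228), in which 18.3% of 8898 genes passed, nearly all of them lower in replicate 2 (18.1%). Among the 1078 genes of the same length class as CD44 and PTPRC, 84.5% had a lower known share than CD44 over both libraries (32.9%), and the median was 9.54%. The known match concerns splice junctions, and the deposited length is that of the annotated model, so a read in CD44-201 need not cover its whole last exon.

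**Figure D4:**
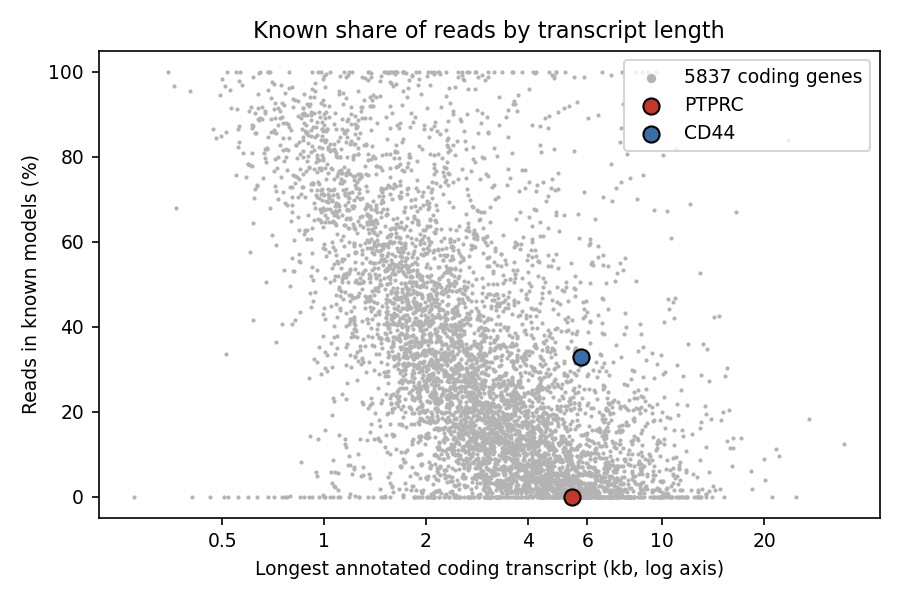
Share of reads in known models over both libraries (percent) against the longest annotated coding transcript (kilobases, log axis) for 5837 protein-coding genes with at least 50 reads. PTPRC lies at 0% and CD44 at 32.9%, at similar lengths of 5390 and 5732 bases. The models of these lengths have 33 and 18 exons, while CD44-201, which held most known CD44 reads, has 9.

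Incomplete CD44 reads lay mainly in suffix and single-exon models. ISM models held 80 reads in replicate 1 and 115 in replicate 2, close to equal shares of the gene (44.0% and 41.5%). Suffix models had 41 and 60 reads, prefix models 12 and 8, and single-exon ISM models of neither subtype 27 and 46. ENCODEHT000335181, of 2 exons and 339 bases, matched both subtypes and had 0 and 1 reads. A chain without variable exons, with v4 and v5 or with v5 and v6 could hold it. The most read were ENCODEHT000335416 (1 exon, 25 and 45 reads), ENCODEHT000335191 (suffix, 5 exons, 15 and 22 reads) and ENCODEHT000335381 (suffix, 2 exons, 5 and 17 reads). None of these 3 passed the exact binomial test over all models, with adjusted p-values of 0.192, 0.664 and 0.129.

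Suffix models of 4 or fewer exons had 14 reads in replicate 1 and 22 in replicate 2, and those of 5 or more exons had 27 and 38. In CD44-208 the fifth exon from the 3′ end is v10. For 7 of the 12 suffix models, with 75 of 101 reads, both a chain with and a chain without a variable exon could hold the model, so the table cannot say which form they came from. The 4 models with 25 reads that fit only chains without a variable exon had 2 to 4 exons. The last 4 exons of CD44-208 lie 3′ of v10, so these reads cannot tell the forms apart either. One suffix model, ENCODEHT000335136 with 9 exons and 1917 bases, fitted only chains with variable exons, the 3′ part of CD44-206 and CD44-208; it had 1 read, in replicate 1.

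Several CD44 models shared their length with annotated ends inside the last exon. The last exon begins at 35229129 and runs for 3274 bases in CD44-201 and CD44-208, for 899 bases in CD44-207 and CD44-209, for 538 bases in CD44-210 and for 340 bases in CD44-206. ENCODEHT000335416, of 899 bases, and ENCODEHT000335381, of 978 bases, equal the 899-base last exon alone and with the exon 5′ of it. ENCODEHT000335191, of 785 bases, equals the last 5 exons of CD44-201 with the last exon ended at 340 bases, and ENCODEHT000335131, of 1132 bases, its last 8 exons with the last one ended at 318 bases, as in CD44-225. By length alone, both would pair the exons of CD44-201 with the end of another model. Both are also among the suffix models above that a chain with a variable exon could hold, so their form is not known. These 4 models held 52 reads in replicate 1 and 90 in replicate 2. No CD44 model outside the known category was longer than 2376 bases, so none could hold the 3274-base last exon. The length is that of the model, and single reads assigned to it may differ.

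CD44 models with new junctions were few, and whether they held a variable exon could not be worked out. NIC models had 1 read in replicate 1 and 5 in replicate 2, led by ENCODEHT000334639 (10 exons, 1 and 1 reads), and the other 4 were single reads. NNC models had 6 and 4 reads, led by ENCODEHT000334918 (9 exons, 1906 bases, 4 and 1 reads). The prefix model ENCODEHT000334627, of 5 exons, had 11 and 5 reads; at 1165 bases it was 64 bases longer than the longest run of 5 annotated first exons. Of the 63 models of both genes, 21 had a read in both libraries and 38 rested on a single read.

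Genes that act with the 2 receptors or regulate their variable exons were compared next. Of 58 listed genes, 51 had a read and 45 had the 10 reads needed for the test; 3 were higher and 2 lower in replicate 2 in the exact binomial test, with a median log2 ratio of 0.04 against 0.01 over all genes tested. That is 5 of 45, against 5.05% of all genes. These levels are in CPM and were not divided by length, since 1 read stands for 1 RNA strand.

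All 17 CD45 substrates and neighbours were tested, and 1 was higher, 2 lower and 14 did not pass (median log2 ratio 0.05). PTPRCAP, a membrane protein that associates with CD45, had 302 and 197 CPM (log2 ratio -0.62, adjusted p of 1.56e-06, exact binomial test). Of the SRC family kinases that CD45 acts on, LCK had 108 CPM ± 15.4, LYN 95.9 CPM ± 14.1 and BLK 152 CPM ± 27.2 (SD, n = 2), and their libraries did not differ by the test (adjusted p of 0.397, 0.43 and 0.114, exact binomial test). CSK, the kinase that opposes CD45 on SRC family kinases, had 287 CPM ± 7.30 (SD, n = 2) and CD79A, a chain of the B cell receptor complex, 684 CPM ± 6.38. LGALS1, a galectin that binds CD45 glycans, had 704 and 882 CPM (log2 ratio 0.32, adjusted p of 8.61e-06, exact binomial test). Of 6 other receptor phosphatases, only PTPRA and PTPRJ reached 10 reads, with 39.6 CPM ± 3.96 and 15.1 CPM ± 2.60 (SD, n = 2).

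Of the 15 genes for CD44 ligands, their synthesis, linkers and sheddases, 9 were tested; 2 were higher and 7 did not pass (median log2 ratio 0.27). SRGN, which encodes the proteoglycan serglycin, had 530 and 755 CPM (log2 ratio 0.51, adjusted p of 1.18e-11, exact binomial test). CD74, the invariant chain and a partner of CD44 in cytokine binding, had 7766 and 8088 CPM (log2 ratio 0.06, adjusted p of 0.0462, exact binomial test). MSN and EZR, which link CD44 to actin, had 303 CPM ± 34.3 and 271 CPM ± 36.6 (SD, n = 2) and did not pass. The hyaluronan synthase genes HAS1 and HAS2 and the ligand gene SPP1 had 0 reads, and HAS3 had 1.

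Of the 20 splicing regulators, 17 were read and tested and 0 passed the exact binomial test (median log2 ratio -0.02). ESRP1 and ESRP2, epithelial factors known to promote CD44 variable exons, and RBM24 had 0 reads in both libraries. HNRNPLL, a factor known to promote skipping of the PTPRC variable exons, had 13 and 8 reads, or 7.43 CPM ± 3.01 (SD, n = 2). PTBP1 had 320 CPM ± 23.2, SRSF3 339 CPM ± 8.35 and HNRNPA1 1610 CPM ± 46.0 (SD, n = 2). The related HNRNPL had 223 CPM ± 17.9 (SD, n = 2).

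**Figure D5:**
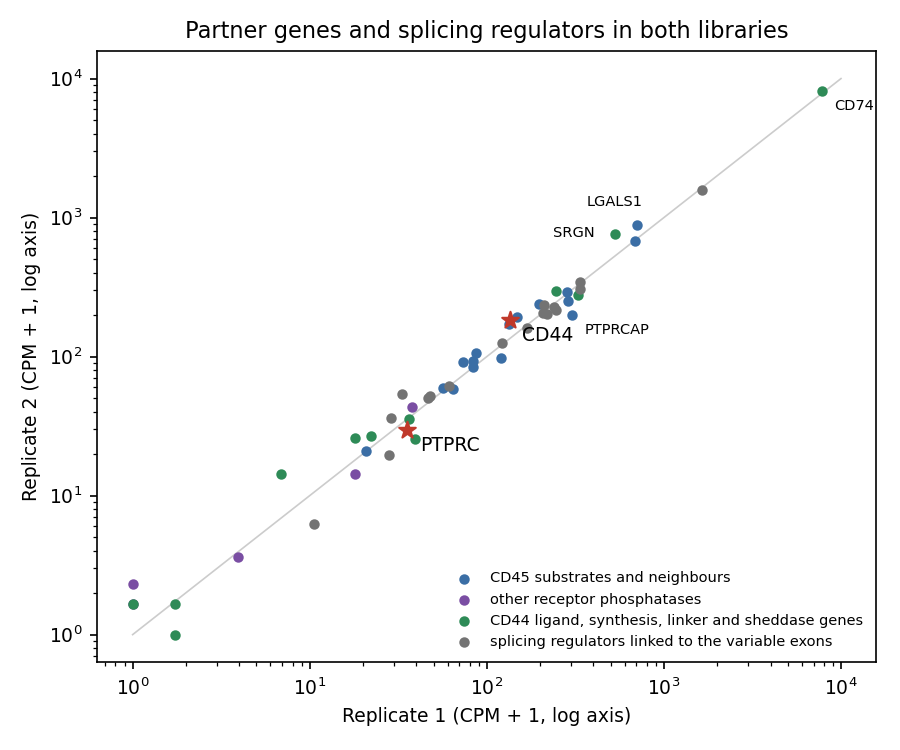
Levels of listed genes with a read and of PTPRC and CD44 (stars) in replicate 1 and replicate 2, as CPM + 1 on log axes with the line of equal levels. The 4 genes named besides PTPRC and CD44 passed the exact binomial test: CD74, SRGN and LGALS1 were higher and PTPRCAP lower in replicate 2.

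The genes nearest to PTPRC by their log2(CPM + 1) in the 2 libraries, among 9711 other protein-coding genes, were EXOC7 and YRDC with the same counts of 47 and 43 reads, and COMMD9 with 46 and 43. Their known shares were 10%, 53.3% and 49.4%, against 0% for PTPRC. Among the nearest to CD44 were RSL24D1 (184 and 273 reads) and FASN (187 and 287), with known shares of 24.9% and 19.6% against 32.9%.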

How the data were processed

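Direct RNA of GM12878 was read in 2 libraries of 1 group. The deposited table gives whole-number read counts, not normalized by the authors, for each transcript model with its category, number of exons and length. Per the submitters' processing notes, minimap2 and hg38 were used; the table's name points to TALON, and versions, annotation release and read filters are not given in the sources used here. All 23533 known models matched GENCODE release 29 in identifier, exon number and length, so positions, exon structures and sequences were taken from that release (GRCh38).

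A gene's count adds up all of its models. Genes with at least 10 reads were compared with the library totals by a two-sided exact binomial test; the known share was tested with Fisher's exact test for genes with at least 20 reads; known model usage was tested with Fisher's exact test or 10000 permutations of reads. Adjustment was Benjamini-Hochberg over all genes tested, with a threshold of 0.05. Log2 ratios used 0.5 added reads. Exact intervals of the log2 ratio used no added reads. Shares carry 95% Wilson intervals, and a count of 0 allows 3 reads; both cover counting error only. The test per model was added after the data were seen. A suffix or prefix model was placed on every annotated exon chain of the same exon number whose inner exons fit its length and whose full length was not shorter than it.

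Scaling alternatives came from edgeR 4.0.16 (TMM) and DESeq2 1.42.0 size factors. Python 3.11.15 and scipy 1.17.1 were used for other steps. The tests were checked on simulated data with counting error only, without the further spread between these libraries. Other alternatives changed the minimum count, the added reads, the categories counted and the libraries used. Where whole categories were left out, the totals compared with were those of the categories kept. Named models and genes are the known models with at least 5 reads, the 3 most read models of each other category, listed genes that passed or had one of the 10 highest mean CPM, and the 3 nearest genes; others were named after their values were seen, and a few items that these rules name are not reported or drawn here. The members and lists were chosen with earlier results of these data known.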

Additional observations from a re-analysis of the deposited data

How the results depend on the processing

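No paired analysis was possible because only 1 group exists. The log2 ratio of CD44 stayed past the threshold under TMM, DESeq2 size factors, no minimum count, a minimum of 50 reads and 1 added read (adjusted p from 0.0143 to 0.0363, exact binomial test). It no longer passed at 0.38 with known models only or at 0.32 with genomic models left out. Both were scaled to the totals of the categories kept. Nor did it pass at 0.26 without the most read genomic model of the gene, scaled to the library totals. That alternative was chosen after seeing the data. With known models only, all genes had a median log2 ratio of -0.26 and 1042 of them passed, against 537 in the main test. PTPRC did not pass under any alternative tried (log2 ratios from -0.90 to -0.28); with known models only it had no reads to test.

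The mean known share of CD44 was 42.0% without genomic models and 52.4% among models with 2 or more exons; with a single library it ranged from 29.6% to 37.9%. The variable exon share of known CD44 reads ranged from 1.22% to 5.80% with a single library. The known share of PTPRC stayed at 0. Known models of CD44 with at least 5 reads were 2 (adjusted p of 0.138, Fisher's exact test; 16.6% of genes passed). With ISM, NIC and NNC models 7 could be tested (adjusted p of 0.0843, permutation of reads; 44.5% passed). The variable exon share of PTPRC had no value under any alternative. With 459 CD44 and 90 PTPRC reads, depth limits what can be said of rare forms.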

Other observations

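Of the 45 tested partner and regulator genes, 6 had no known read, a smaller share than the 1722 of all 10634 genes tested. They were CELF2 and PTBP3, both RNA-binding splicing factors, with 173 and 137 reads over both libraries, SRSF10 with 124, the receptor phosphatase gene PTPRJ with 43, the sheddase gene ADAM17 with 28 and HNRNPLL with 21. The longest coding transcripts of PTBP3, CELF2 and PTPRJ have 7995, 8044 and 7851 bases, while that of SRSF10 has 3487. These genes were named after their values were seen. MSN, which was read at 303 CPM, had 0.808% of its reads in known models, and PTPRCAP had 98.7%.

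The second prefix model of CD44 with more bases than the annotated exons, ENCODEHT000334824 of 4 exons, had 1 read in each library and was 73 bases longer than the longest run of 4 annotated first exons. The other 2 prefix models of CD44 had 1 read each, in replicate 2.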
